A study of Schistosoma mansoni with 6 samples.

Results

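Inositol trisphosphate (IP3) receptor genes were followed between the anterior and posterior body of adult females of *Schistosoma mansoni*, a blood fluke. The deposited table holds 10831 genes, and 3 of them are annotated as IP3 receptors: Smp_151860, Smp_151850 and Smp_199540. They were taken by name and were chosen by their group means, which lay far higher in tails than in heads. The difference between heads and tails in these 3 genes is therefore given as a description, with no test.

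RNA was measured in heads, the fragments anterior to the ovary, and in tails, the fragments posterior to it. All worms were adult females recovered from mice 7 to 8 weeks p.i. (post-infection), and no genotype or treatment set the groups apart. Each group had 3 libraries of about 100 pooled fragments, from independent rounds of extraction. A tail is a mixed sample: it is mostly vitellarium, the gland that makes the yolk and eggshell cells of the egg, but it also holds gut, tegument and muscle. In such bulk samples, more cells of a type and more RNA per cell cannot be told apart.

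An IP3 receptor is a calcium channel in the membrane of the endoplasmic reticulum. When a receptor at the cell surface activates phospholipase C, that enzyme cuts a membrane lipid into IP3 and diacylglycerol. IP3 opens the channel and stored calcium flows into the cytoplasm, where calmodulin and other calcium sensors read it. In animals studied in detail, this route is used in secretion, at fertilisation and in muscle, and pumps in the plasma membrane and the endoplasmic reticulum then lower calcium again.

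Smp_151860 was also among the genes that the study cloned for in situ hybridization, which shows where an RNA lies in the worm. The primers that bounded its cloned fragment are shown because they define the stretch of the receptor gene that was probed:
Smp_151860 forward primer: aaatgagacgcgttttcgac
Smp_151860 reverse primer: tccagtgtccagctccagta
Both primers are 20 bases long, with a GC content of 45% in the forward and 55% in the reverse primer.

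The values are normalized counts, that is, reads per gene divided by a DESeq size factor that stands for the depth of a library. The authors' table gives only the mean of each group. Because each mean is made from whole reads of 3 libraries on a known scale, the reads of single libraries could be solved back for genes of low and middle level, including all 3 IP3 receptor genes. The labels' replicate numbers could not be matched to these libraries, so a library is named here by its group and size factor: Head 2.55, Head 2.35 and Head 2.08, and Tail 0.72, Tail 0.35 and Tail 0.32. The deposited means and the size factors put 25400000 to 31100000 reads on genes in a head library and 5250000 to 11800000 in a tail library. A total of 3 reads over a group stands for a mean of 0.43 in heads and 2.16 in tails, which makes low tail levels the less precise.

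All 3 IP3 receptor genes were more than 20-fold higher in tails than in heads by group means. Smp_151860, annotated as an IP3 receptor without a stated type, had 9.41 normalized counts in Head 2.55, 51.5 in Head 2.35 and 61.9 in Head 2.08. In tails it had 1470 in Tail 0.72, 823 in Tail 0.35 and 1061 in Tail 0.32. Its lowest tail library was thus 13.3 times its highest head library, and Head 2.55 lay apart from the other head libraries. Its means were 40.9 ± 27.8 (SD, n = 3) in heads and 1118 ± 327 (SD, n = 3) in tails, a 27.3-fold ratio and 4.77 on the log2 scale.

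Smp_151850, annotated as a type 1 IP3 receptor, had 4.70 normalized counts in Head 2.55, 35.8 in Head 2.35 and 57.1 in Head 2.08. Its tail libraries had 947 in Tail 0.72, 604 in Tail 0.35 and 620 in Tail 0.32. Again no library of one group reached the range of the other, and the lowest tail library was 10.6 times the highest head library. The means were 32.5 ± 26.3 (SD, n = 3) in heads and 724 ± 194 (SD, n = 3) in tails, which is 22.3-fold and a log2 ratio of 4.48.

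Smp_199540, the gene with the fewest reads, had 4.70 normalized counts in Head 2.55, 19.2 in Head 2.35 and 17.8 in Head 2.08. In tails it had 419 in Tail 0.72, 321 in Tail 0.35 and 316 in Tail 0.32. The groups lay 16.5-fold apart at their nearest libraries, the widest gap of the 3 genes. Its means were 13.9 ± 7.97 (SD, n = 3) in heads and 352 ± 57.9 (SD, n = 3) in tails, a 25.4-fold ratio and 4.66 on the log2 scale.

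**Figure D1:**
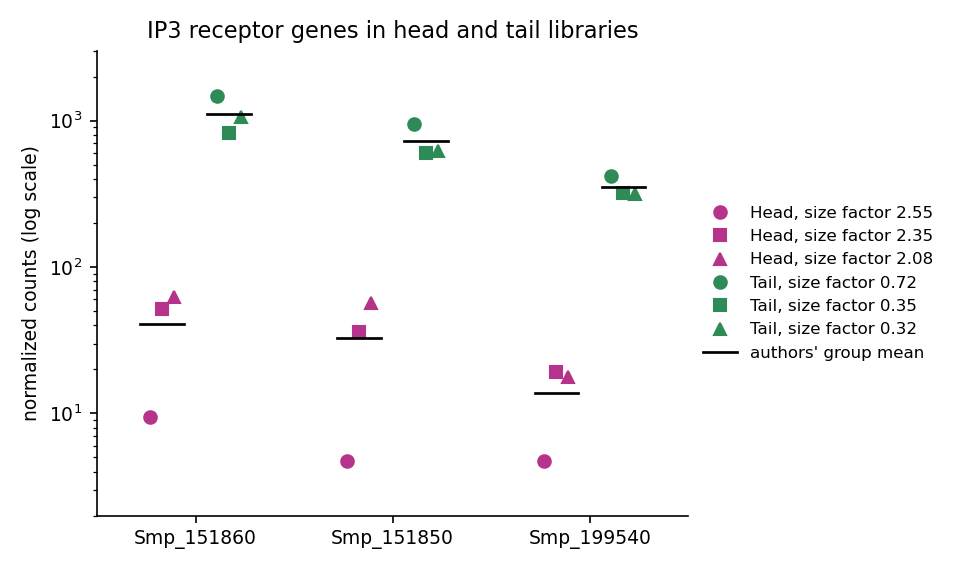
Normalized counts (vertical axis, log scale) of the 3 IP3 receptor genes in each head and tail library, with a bar at the authors' group mean. In each gene the tail libraries lie at least 10.6 times above the highest head library, and Head 2.55 is the lowest of the heads.

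In relative terms the spread between libraries was wider in heads than in tails. The coefficient of variation in heads was 67.9% for Smp_151860, 81.0% for Smp_151850 and 57.5% for Smp_199540. In tails it was 29.3%, 26.7% and 16.5% in the same order. The head values rest on few reads: Head 2.55 held 24, 12 and 12 reads of these genes, against 1057, 681 and 301 in Tail 0.72. Summing the reads of each group's libraries gave log2 ratios per normalized depth of 4.95 for Smp_151860 (95% interval of 4.76 to 5.14), 4.67 for Smp_151850 (4.46 to 4.89) and 4.78 for Smp_199540 (4.46 to 5.11). These exact binomial intervals cover counting error only and leave out variation between libraries, and the 3 intervals overlap. They are no test of heads against tails, the contrast the genes were chosen by, nor of the genes against each other.

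Among the 8774 genes with a mean of at least 10 over both groups, 13.1% were at least 2-fold higher in tails and 1.11% at least 16-fold higher. The 3 receptor genes were all in the latter set, as their choice fixed. Their log2 ratios ranked 70, 79 and 73 from the top for Smp_151860, Smp_151850 and Smp_199540. Of the 2888 genes that could be fitted across single libraries, 21.2% had every tail library above every head library, as the 3 receptor genes did.

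The contribution of each gene to the reads of the 3 genes was compared within libraries, which needs no scaling between heads and tails. Smp_151860 gave between 45.3% and 53.1% of these reads in every library. Smp_151850 gave 25.0% in Head 2.55, 33.6% in Head 2.35 and 41.8% in Head 2.08, against 31.0% to 34.6% in the tail libraries. Smp_199540 gave 25.0%, 18.0% and 13.0% in the same order of head libraries, against 14.8% to 18.3% in tails. The shares of heads therefore enclosed those of tails for Smp_151850 and Smp_199540, and the make-up of the group did not separate heads from tails. The share of Smp_151850 differed more among the heads themselves, with 95% Wilson intervals of 14.9% to 38.8% in Head 2.55 and 36.2% to 47.6% in Head 2.08, than among tails. Head 2.55 had only 48 reads of the 3 genes, and Head 2.08 had 285.

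**Figure D2:**
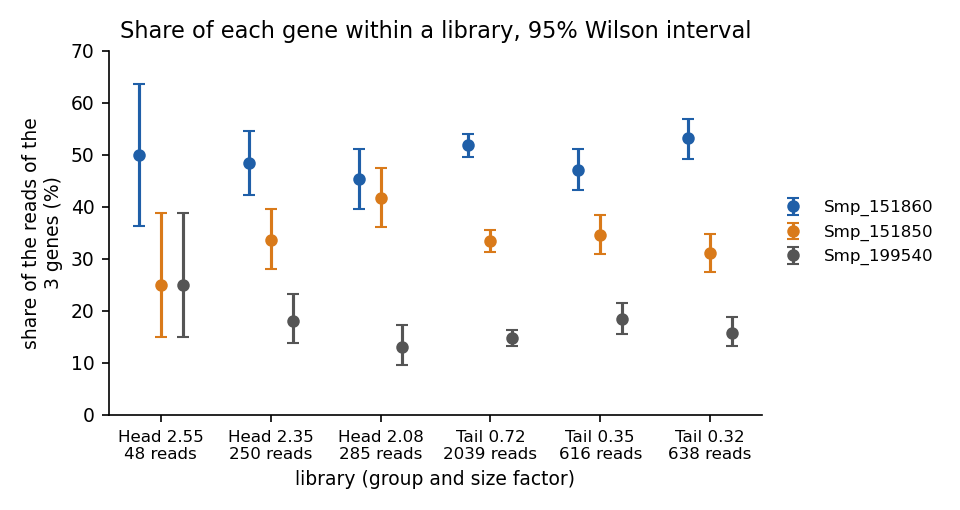
Share of each IP3 receptor gene in the reads of the 3 genes (vertical axis, %) for each library, with 95% Wilson intervals for counting error. The tail libraries, with 616 to 2039 reads, gave shares for Smp_151850 of 31.0% to 34.6%, inside the 25.0% to 41.8% of the heads.

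Transcript lengths were not used here, so these shares compare a gene between libraries and do not rank the genes by transcript number. No source used here says how reads that match more than one of these related genes were assigned, so the split between them is uncertain. Whether neighbouring gene models belong to the same transcript was not tested.

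The labels were set beside genes whose place in the female is known from the study's in situ hybridization or earlier work. The study took its cloned genes from its own head- and tail-enriched sets of these data. It also named the earlier vitelline factors because they were in the tail-enriched set. The 11 vitelline markers, among them tyrosinases that harden the eggshell and the eggshell protein p14, had log2 ratios of tails over heads from 3.91 to 7.81. The 5 oesophageal gland markers lay between -7.69 and -6.15, and the 3 markers of Mehlis' gland and the ootype, which sit beside the ovary, between -7.002 and -4.82. The ovary marker protocadherin 11 (Smp_159920) had a mean of 988.5 in heads and 43.3 in tails. Females were cut on both sides of the ovary, and how much ovary either group held was not tested beyond this gene. The direction of such markers was thus fixed by how they were picked, so they describe heads and tails and are no independent check of the labels. None of these markers was at 0 in the opposite group.

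The level left in heads was then set beside that of vitelline markers. The head mean was 3.66% of the tail mean for Smp_151860, 4.49% for Smp_151850 and 3.94% for Smp_199540. In the 11 vitelline markers this share ran from 0.447% to 6.64%, and 9 of them lay below every IP3 receptor gene. The exceptions were cryβγ-1, a crystallin-like gene, with 6.64% and nanos-1, with 5.63%; nanos proteins are RNA regulators of germ cells, and both genes were seen in subsets of cells within the vitellarium. In the study's in situ hybridization nanos-1 also marked part of the ovary, so its level in heads need not be vitelline.

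Head 2.55 was the lowest head library for all 3 receptor genes. The level in Head 2.08 was 6.58 times that in Head 2.55 for Smp_151860, 12.1 times for Smp_151850 and 3.77 times for Smp_199540. Among 2356 other genes with a solved head mean of at least 10, the median of this ratio was 1.01, and 41.7% were lowest in Head 2.55. Of the 5 vitelline markers with solved head reads, 4 were lowest in Head 2.55 and 3 highest in Head 2.08. Their summed level was 25.9 normalized counts in Head 2.55, 213 in Head 2.35 and 442 in Head 2.08.

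The receptor genes did not follow every vitelline marker in size. Tyrosinase 2 reached 0.0360%, 0.686% and 2.67% of its tail mean in Head 2.55, Head 2.35 and Head 2.08. Smp_151850 reached 0.650%, 4.94% and 7.89% in the same libraries. The nanos-1 gene, with 0.797%, 8.59% and 7.50%, lay nearest to the receptor genes, which is a comparison of levels only. The marker fs800 had 1, 3 and 0 reads in the heads and says little. The part of vitelline tissue left in head fragments in the head levels of the receptor genes was not tested.

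**Figure D3:**
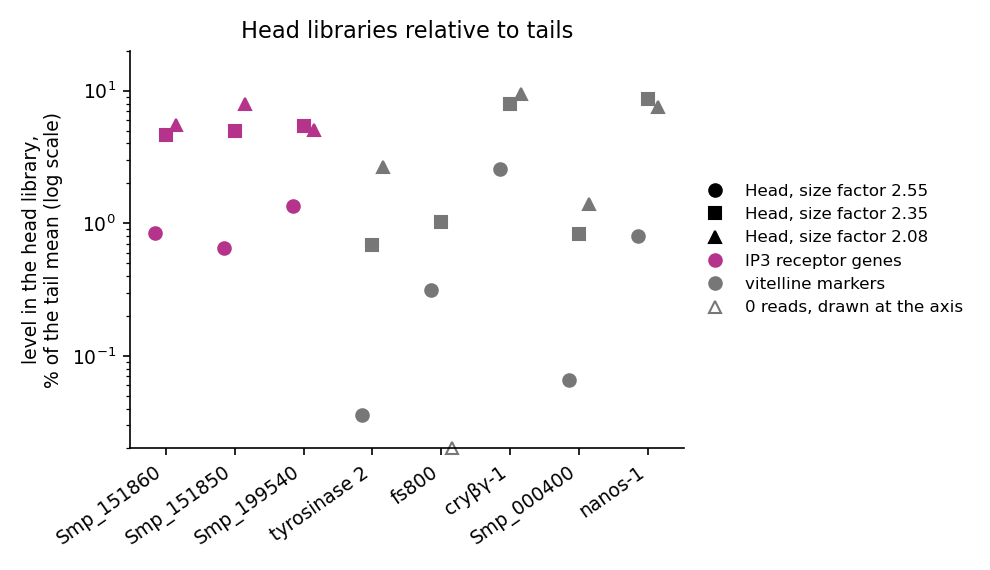
Level in each head library as a percentage of the tail mean (vertical axis, log scale) for the IP3 receptor genes and the 5 vitelline markers with solved head reads. The circle, Head 2.55, is the lowest point of each receptor gene at 0.650% to 1.34%, and tyrosinase 2 and Smp_000400 lie below the receptor genes in every library.

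Among tails, each receptor gene was highest in Tail 0.72. There it was 1.56 times the mean of the other tail libraries for Smp_151860, 1.55 times for Smp_151850 and 1.31 times for Smp_199540. Of 3902 other genes with a solved tail mean of at least 100, 44.5% were highest in that library, with a median ratio of 1.04. The 9 markers of oesophageal gland, Mehlis' gland, ootype and ovary summed to 546 normalized counts in Tail 0.72, 1030 in Tail 0.35 and 1092 in Tail 0.32, and 7 of them were lowest in Tail 0.72. The 3 vitelline markers with solved tail reads did not share the receptors' order, with sums of 1105, 1078 and 1615. The part of anterior tissue in the order of the tail libraries was not tested.

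In the RefSeq annotation of assembly ASM23792v2, Smp_151850 and Smp_151860 are next to each other on chromosome 4, and Smp_199540 is on a sequence not placed on a chromosome. The build behind the deposited table was not matched to this assembly, so only gene order is used. The gene next but one to Smp_151860 was nanos-1 (Smp_055740), with 5.10, 54.9 and 47.99 normalized counts in Head 2.55, Head 2.35 and Head 2.08 and 567, 641 and 710 in Tail 0.72, Tail 0.35 and Tail 0.32. Its means of 36.0 in heads and 640 in tails gave a 17.8-fold ratio and 4.15 on the log2 scale. The gene between them, Smp_055720, codes for a MORC-family zinc finger protein and had the authors' means of 1249 in heads and 2184 in tails (log2 ratio 0.81).

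Other neighbours showed no difference of that size. A transient receptor potential gamma channel (Smp_151880), which lets cations in through the plasma membrane, stands just beyond nanos-1. It had 44.3, 46.0 and 63.8 normalized counts in heads and 129, 87.9 and 116 in tails. Every tail library thus lay above every head library, as in 21.2% of all fitted genes. The channel gene rose by 1.10 ± 0.24 (SE) on the log2 scale in limma's moderated test of log2(normalized count + 1), with an adjusted p of 0.00513. On the other side of Smp_151850, the hypothetical protein Smp_151840 was lower in tails, with a limma log2 change of -0.83 and an adjusted p of 0.0125, which became 0.467 when libraries were centred on their median and 0.0571 without Head 2.35. The choline transporter Smp_151830 had a log2 ratio of means of -1.52 and an adjusted p from limma of 0.0339, but that p was 0.0698 to 0.115 when any 1 head library was left out, 0.0563 to 0.0619 without Tail 0.32 or Tail 0.35, and 0.134 with libraries centred.

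Farther out, microtubule-associated protein 9 (Smp_151820), a protein of the cell skeleton, rose by 0.78 on the log2 scale (limma adjusted p = 0.00591). The small GTPase Rab 4B (Smp_055670), which acts in recycling of endosomes, had a log2 ratio of means of 0.04. Beyond the channel gene, Smp_055760, a mitochondrial protease, had a log2 ratio of 0.30 and Smp_055770, a subunit of protein phosphatase PP2A, 0.11. The transporter gene smdr2 (Smp_055780), which belongs to the family of drug efflux pumps, lay at -1.64. High levels in tails were thus not a feature of all genes along this stretch, and the place of nanos-1 beside the receptors is a description of gene order.

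**Figure D4:**
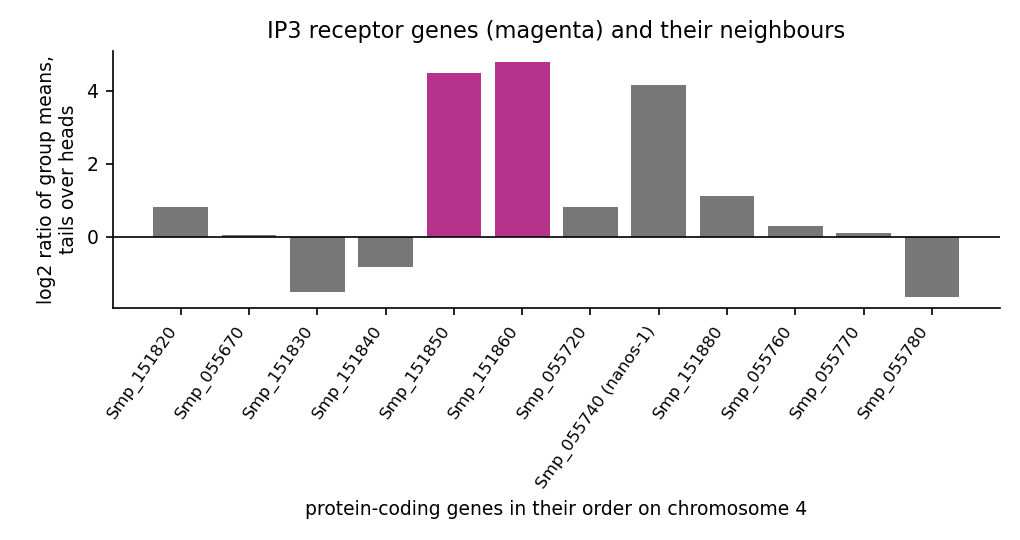
Log2 ratio of group means, tails over heads (vertical axis), for 12 protein-coding genes in their order on chromosome 4. The 2 receptor genes at 4.48 and 4.77 and nanos-1 at 4.15 stand far above the other 9 genes, which lie between -1.64 and 1.11.

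The genes most like each receptor were sought over the 6 libraries, by the distance between profiles of log2(normalized count + 1) centred on each gene's mean, among the 2887 other genes fitted. The nearest to Smp_151860 was Smp_151850, at a distance of 0.60, followed by Smp_199540 at 0.81. The next were the hypothetical protein Smp_124510 (0.82), Smp_041880, whose annotation names allatostatin and somatostatin (0.85), and the hypothetical protein Smp_058160 (0.85). Smp_151850 had Smp_058160 first (0.57), then Smp_151860 (0.60), Smp_041880 (0.94), nanos-1 (1.01) and the hypothetical protein Smp_159480 (1.10).

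Smp_058160 had 3.53, 28.1 and 56.1 normalized counts in Head 2.55, Head 2.35 and Head 2.08 and 947, 650 and 776 in Tail 0.72, Tail 0.35 and Tail 0.32. It thus shared with Smp_151850 the low value in Head 2.55 and the high one in Tail 0.72. Smp_199540 was nearest to Smp_001050, annotated as C20orf152 (0.60), then to the hypothetical protein Smp_200150 (0.78) and to Smp_151860 (0.81), with the hypothetical protein Smp_037430 (0.89) and a late histone H1 gamma, Smp_162370 (0.89), behind. Smp_199540 was the 7th nearest gene to Smp_151850, and Smp_151850 the 13th nearest to Smp_199540. These distances follow mainly the gap between heads and tails, which the receptors were chosen for, and all genes share the same 6 libraries. With Pearson correlation in place of distance, only 1 of the 5 nearest genes was shared for each receptor.

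Genes of calcium signalling around the receptors were then taken from 11 lists drawn from the annotation. Of their 216 genes, 191 had a mean of at least 10. By group means 14 of the 191 (7.33%) were at least 2-fold higher in tails and 75 (39.3%) at least 2-fold lower, with a median log2 ratio of -0.54. Among all genes, 13.1% were higher and 23.1% lower by that measure. The high level of the receptor genes in tails was thus not shared by most of the calcium genes listed. With limma, 4 of the 52 listed genes that could be fitted rose and 30 fell, beside 18.8% and 43.2% of all 2888 fitted genes. The fitted genes are those with low means, under 200 in heads and 1200 in tails. Of all limma calls, 30.3% were higher in tails, and this share became 52.9% when libraries were centred on their median, which moved the log2 changes by 0.67. For the listed genes that centring gave 8 higher and 16 lower.

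Both genes listed under IP3 production were at least 2-fold higher in tails, beside 13.1% of all genes. Phospholipase C beta (Smp_044820), the form that G proteins activate, had 96.1, 102 and 83.5 normalized counts in heads and 346, 190 and 178 in tails. It rose by 1.27 ± 0.27 (SE) on the log2 scale, with an adjusted p from limma of 0.00457, and 18.8% of all fitted genes rose by limma. Every tail library lay above every head library, as in 21.2% of all fitted genes. Smp_146330, whose annotation names phosphatidylinositol bisphosphate and is then cut short, had the authors' means of 573 in heads and 1591 in tails (log2 ratio 1.47). The part of its annotation that is left does not state that it makes IP3. With the groups scaled to equal totals, 1 of these 2 genes remained past 2-fold. The log2 ratios of group means, 1.35 and 1.47, were below the 4.48 to 4.77 of the receptor genes, and that difference was not tested.

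Enzymes that remove IP3 or build other inositol phosphates were mixed, with a median log2 ratio of -0.15. In all genes with a mean of at least 10, 13.1% were at least 2-fold higher in tails and 23.1% lower. Of 16 such enzymes, 1 was 2-fold higher in tails, 2 were 2-fold lower and 13 lay between. The one higher was inositol pentakisphosphate 2-kinase (Smp_011960), which makes the fully phosphorylated inositol, with the authors' means of 304 in heads and 1426 in tails (log2 ratio 2.23). Smp_156740, annotated as a type II enzyme of IP3 with the name cut short, had 210, 201 and 174 normalized counts in heads and 61.2, 36.9 and 47.0 in tails. It fell by 2.02 on the log2 scale (SE of 0.22, limma adjusted p = 0.000351), and 43.2% of all fitted genes fell by limma. Its groups did not overlap, and the share of all genes without overlap in this direction was not counted. The inositol 5-phosphatase Smp_172250, an enzyme class that ends the IP3 signal, had means of 1887 in heads and 657 in tails (log2 ratio -1.52).

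The other enzymes annotated for IP3 differed less. IP3 3-kinase B (Smp_140840), which turns IP3 into a tetrakisphosphate, had the authors' means of 1636 in heads and 2926 in tails (log2 ratio 0.84). Smp_064190, with the same cut annotation as Smp_156740, had 847 and 807 (log2 ratio -0.07). The multiple inositol polyphosphate phosphatase Smp_179560 had 784 and 422 (log2 ratio -0.89). Smp_055810, an inositol 5-phosphatase of low level, had 23, 23 and 21 reads in the heads and 1, 0 and 0 in the tails, and fell in limma with an adjusted p of 0.00124. For the polyphosphate 5-phosphatase Smp_166990 the limma change was -0.37 with an adjusted p of 0.0938, which became 0.0399 without Tail 0.72, while centring the libraries on their median turned the change to 0.31 (adjusted p = 0.143).

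Genes of phosphoinositide lipids, the precursors of IP3, lay close to equal between heads and tails. Over all genes, 13.1% were at least 2-fold higher in tails and 23.1% lower. Of the 34 lipid genes, none was 2-fold higher and 2 were 2-fold lower, with a median log2 ratio of 0.02. The lower ones were a phosphoinositide 3-kinase (Smp_164960), which had the authors' means of 2364 in heads and 944 in tails, and a myotubularin (Smp_176480), a phosphatase of these lipids, with a log2 ratio of -1.06. Of 5 fitted with limma, 0 passed an adjusted and 0 an unadjusted p of 0.05. Among them, the FYVE-finger gene Smp_156680, had a log2 ratio of 0.74 and an adjusted p of 0.0924, which was 0.00314 without Tail 0.32 and 0.00714 with libraries centred. PDK1 (Smp_094250), a kinase that these lipids draw to the membrane, had a log2 ratio of means of 0.78.

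Diacylglycerol is the other product of phospholipase C, and protein kinase C is its best-known target. The protein kinase C gene pkc 2 (Smp_128480) had 195, 175 and 211 normalized counts in Head 2.55, Head 2.35 and Head 2.08 and the authors' mean of 1560 in tails, an 8.05-fold ratio. It was the only one of the 7 genes of this list that was at least 2-fold higher in tails. Another, the diacylglycerol kinase Smp_199490, was the only one at least 2-fold lower. Among all genes, 13.1% were at least 2-fold higher in tails and 23.1% lower, so these counts do not set the list apart. The other protein kinase C genes of the list, named after their values were seen, differed less. Their log2 ratios were 0.22 for Smp_131700 (epsilon type) and -0.29 for Smp_096310 (atypical). The diacylglycerol kinases, which remove diacylglycerol, had log2 ratios of -0.89 for Smp_036180, -0.95 for Smp_163080, -1.16 for Smp_199490 and, named after its values were seen, -0.34 for Smp_131190. Of these kinases, Smp_199490 was fitted and fell in limma with an adjusted p of 0.0180. That p was 0.0561 to 0.0674 when any 1 head library was left out and 0.210 with libraries centred.

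Genes for other release and for refill of the calcium stores gave a median log2 ratio of -0.54 over 9 genes. Of these, 1 was at least 2-fold higher in tails and 2 were at least 2-fold lower. That is near the 13.1% and 23.1% of all genes. The higher one was the channel ORAI (Smp_076650), which admits calcium when the stores are empty. It had an authors' mean of 242 in heads, and 509, 760 and 761 normalized counts in Tail 0.72, Tail 0.35 and Tail 0.32, a log2 ratio of means of 1.49. Its partner in the store membrane, stromal interaction molecule (Smp_174640), had 355 and 407, a log2 ratio of 0.20, and was named after its values were seen. The ryanodine receptor (Smp_163570), the other large calcium release channel and a channel of muscle, had the authors' means of 9683 in heads and 4351 in tails (log2 ratio -1.15). It thus lay opposite to the IP3 receptor genes.

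The pumps were not uniform either. The endoplasmic reticulum pump SERCA (Smp_007260), which refills the store that IP3 receptors empty, had the authors' means of 14018 in heads and 19839 in tails (log2 ratio 0.50). The plasma membrane pumps, which expel calcium, lay lower in tails, with log2 ratios of -2.30 for Smp_137170, -0.84 for Smp_199210 and -0.71 for Smp_176130. The last, named after its values were seen, was the one gene of this list that could be fitted. Its limma change was -0.73 ± 0.22 (SE) on the log2 scale, with an adjusted p of 0.0227, and 43.2% of all fitted genes fell. Centring libraries on their median moved limma log2 changes by 0.67, nearly the size of this fall, so the call depends on the scaling. Inside the store, calreticulin (Smp_030370) and calnexin (Smp_043150), chaperones that bind calcium, had log2 ratios of 0.42 and 0.47. These are near the log2 ratio of group totals, 0.43, so they depend on the scaling. Reticulocalbin (Smp_005230) had the authors' means of 3430 in heads and 1827 in tails (log2 ratio -0.91). The median over the 4 genes of this list was -0.24. Reticulocalbin 2 (Smp_158150), which also served as a marker of Mehlis' gland and the ootype, had 8930 in heads and 70.8 in tails.

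Channels and exchangers of the surface were mostly lower in tails. By group means, 23.1% of all genes were at least 2-fold lower in tails and 13.1% higher. Of 24 genes listed as entry channels, 16 were at least 2-fold lower and 2 at least 2-fold higher, with a median log2 ratio of -1.21. The lowest were a subunit of voltage-dependent calcium channels (Smp_134050), a short transient receptor potential channel (Smp_163160), another transient receptor potential channel (Smp_197680) and the channel TRPA (Smp_147860), with log2 ratios of -3.20, -2.93, -2.61 and -2.58. TRPA had 160, 160 and 144 normalized counts in heads and 38.9, 19.9 and 18.8 in tails, and fell with an adjusted p from limma of 0.000399. The higher ones were the transient receptor potential gamma gene beside nanos-1 and a pore channel of endosomes and lysosomes (Smp_163310), with log2 ratios of 1.11 and 1.27. The latter was named after its values were seen, and it is counted in the list though it is not a channel of the surface.

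Beside the 23.1% of all genes at least 2-fold lower in tails and the 13.1% higher, exchangers and mitochondrial uptake had 7 genes. Of these, 5 were at least 2-fold lower in tails and none was at least 2-fold higher. They were the sodium calcium exchanger Smp_152830 (log2 ratio -2.72), Smp_067580, which is annotated as CCDC109A, the pore of the mitochondrial uniporter (-1.25), the exchangers Smp_149930 (-1.16) and Smp_170450 (-1.09), and the mitochondrial uptake protein Smp_146870 (-1.05).

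Calcium sensors formed the largest list. Of 60 genes for EF-hand proteins, annexins, synaptotagmins and the like, 38 were at least 2-fold lower in tails, 4 at least 2-fold higher, and the median log2 ratio was -1.44. Among all genes, 23.1% were at least 2-fold lower in tails and 13.1% higher. With limma, 16 of the 22 fitted sensor genes fell and 2 rose, beside 43.2% and 18.8% of all fitted genes. Centring libraries on their median changed the calls over all fitted genes from 1249 lower and 543 higher to 772 and 867. Annexins, which bind membranes in the presence of calcium, were among the lowest, with log2 ratios of -7.50 for Smp_155580 and -6.65 for Smp_194120, beside -6.19 for the EF-hand gene Smp_150830. The ras and EF-hand gene Smp_132500 had 129, 187 and 108 reads in the heads and 0 in every tail library, which makes it at least 28.1-fold lower in tails by the mean that 3 reads over the group stand for. Another ras and EF-hand gene, Smp_170770, went the other way, with 6.67, 10.6 and 9.12 normalized counts in heads and 142, 131 and 103 in tails. It rose by 3.69 on the log2 scale with an adjusted p from limma of 8.38e-05. This gene and the others higher in tails were named after their values were seen; the others were the synaptotagmins Smp_206290 and Smp_149780 and the EF-hand gene Smp_032950, with log2 ratios of 2.18, 2.17 and 1.15.

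Calmodulin and its targets were in between, with a median log2 ratio of -0.93 over 18 genes. Of these, 7 were at least 2-fold lower and 1 at least 2-fold higher in tails, beside 23.1% and 13.1% of all genes. Of 4 genes annotated as calmodulin, Smp_026560 lay near equal between heads and tails, with the authors' means of 9794 in heads and 8632 in tails (log2 ratio -0.18). It was named after its values were seen, as were Smp_134470 and Smp_018940, with log2 ratios of -1.11 and -1.04. The remaining calmodulin gene, Smp_144790, had 41.6, 55.3 and 67.7 normalized counts in heads and 8.34, 2.84 and 12.5 in tails, and fell with an adjusted p from limma of 0.00242. Myosin light chain kinase (Smp_121780), which calmodulin switches on in muscle, had a log2 ratio of -2.34, another gene so annotated (Smp_128750) -2.02 and a calmodulin-dependent kinase of type I (Smp_065290) -1.86. The higher gene, named after its values were seen, was Smp_168170, annotated as a calcineurin phosphoesterase, with a log2 ratio of 1.09. It was below 2-fold with groups scaled to equal totals or centred on the median log2 ratio. Whether calmodulin acts on its product was not tested.

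Proteins known from vertebrates to bind IP3 receptors had a median log2 ratio of 0.43 over 10 genes. The log2 ratio of group totals was also 0.43, so this median depends on the scaling. Of the 10 genes, 2 were at least 2-fold higher in tails, 1 was at least 2-fold lower and 7 lay between. Among all genes, 13.1% were higher and 23.1% lower by that measure. The ankyrin Smp_154020, of a family that ties membrane proteins to the cell skeleton, had the authors' means of 226 in heads and 1205 in tails (log2 ratio 2.41). The immunophilin FKBP12 (Smp_079230) had 2878 and 7841, a log2 ratio of 1.45. Erlin 2 (Smp_138960), which leads active receptors to degradation, had 597 and 1118 (log2 ratio 0.91). Another ankyrin gene, Smp_035120, lay at -2.12 and had 66, 61 and 46 reads in heads and 10, 0 and 1 in tails. Its limma adjusted p of 0.0297 was 0.0772 without Head 2.08, 0.0859 to 0.0909 without the other head libraries, 0.0711 without Tail 0.32 and 0.0589 with libraries centred.

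**Figure D5:**
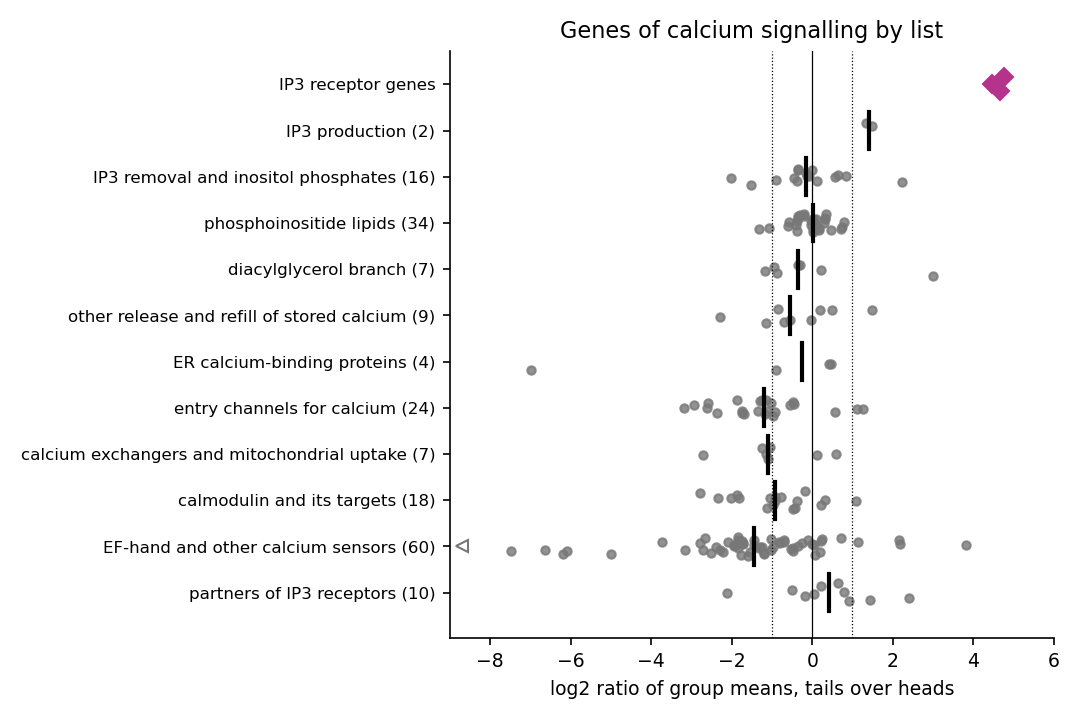
Log2 ratio of group means, tails over heads (horizontal axis), for genes of the 11 calcium lists with a mean of at least 10, with the number of genes in brackets, a bar at each median and dotted lines at 2-fold. No listed gene reaches the 4.48 to 4.77 of the IP3 receptor genes, and the medians of entry channels (-1.21), exchangers and mitochondrial uptake (-1.09) and EF-hand and other sensors (-1.44) lie below the line of 2-fold lower; an open triangle marks a gene at 0 in all tails.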

How the data were processed

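Heads and tails of adult females were compared, with 3 libraries each. The authors mapped reads with STAR 2.5.0b to WormBase ParaSite 4. The tool that counted reads per gene is not given in the sources. The deposited signal values are the authors' read numbers after division by size factors of DESeq 1.22, as a mean for each group and over both groups. The authors' fold changes, p-values and adjusted p-values of tails against heads, in the same table, were not used, and 0 columns of single libraries were left unmatched.

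Reads of single libraries were solved as whole numbers from the group means, which carry 10 significant digits, for head means under 200 and tail means under 1200. The size factors were found from the lowest means. A single solution was found for 3404 of 3407 genes in heads and 6625 of 6905 in tails. Where the heads of a gene were solved, the mean over both groups narrowed its tail solution. The lower means, 2552 in heads and 6441 in tails, were shifted so that no reads should give them. A solution was still found in 0.47% of cases in heads and 1.86% in tails. The highest means within the limits, among them the tail mean of Smp_151860, were not in this check. On data simulated from genes solved in both groups, all 3207 and 2951 single solutions were right. Genes solved in tails alone, which lack that narrowing, were not simulated.

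Genes solved in both groups with at least 10 reads were tested with limma 3.58.1 after a log2 transform with 1 added to each normalized count. The fit used a mean-variance trend, and Benjamini-Hochberg adjustment ran over 2888 genes. On simulated data it found 77 of 100 genes with a 4-fold and 92 of 96 with a 16-fold change, and called 6 of 2647 unchanged genes. The simulation set the same dispersion for every gene and no shift of scale between groups. It therefore does not cover calls that change when libraries are centred on their median. Nothing but the independent extractions named in the study's methods says how the libraries differ, so p-values measure the spread between these pools. Genes beyond the solving limits are given by the authors' mean alone.

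The members and lists were chosen with earlier results of these data known, and search terms of the lists were corrected after reading annotation names. Named genes were the members, all genes annotated for IP3, up to 4 genes of each list with the largest log2 ratio in size, the 5 nearest in profile to each member, their neighbours and the markers. RefSeq gave the place of 10579 of the 10831 genes. Alternatives were tried on scaling, pseudocount, filter, threshold, trend, likeness and leaving out each library.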

Additional observations from a re-analysis of the deposited data

How the results depend on the processing

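The log2 ratios of the IP3 receptor genes kept their direction under every alternative run. Without each library in turn they ranged from 4.30 to 5.20 for Smp_151860, 3.96 to 5.16 for Smp_151850 and 4.25 to 4.97 for Smp_199540. The highest value of Smp_151850 came without Head 2.08 and the lowest without Head 2.55. Groups scaled to equal totals gave 4.34, 4.05 and 4.24, and 10 added to both means gave 4.47, 4.11 and 3.92. The median log2 ratio of the 7196 genes with a mean of at least 100 was 0.14.

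Over all genes, the count at least 2-fold higher in tails was 1149 and became 639 with equal totals. At a log2 ratio of at least 2 in size, 282 genes were higher and 729 lower. The count of 2025 lower became 1201 at a minimum mean of 100. For limma, 543 rose and 1249 fell, against 867 and 772 with libraries centred on their median. Leaving out each library gave 440 to 548 higher and 947 to 1372 lower. For the listed genes it gave 4 to 5 higher and 19 to 32 lower, the lowest without Head 2.35. Pearson correlation shared 1 of the 5 nearest genes with the distance for Smp_151860, 1 for Smp_151850 and 1 for Smp_199540. The cause of these shifts was not tested. Over the alternatives for named genes tested with limma, direction and call were kept 144 times, the call was lost 17 times and gained 3 times, and 1 direction reversed: Smp_166990, -0.37 on the log2 scale and not called, was at 0.31 with libraries centred. For the lists, 36 counts moved by more than 1.5 times and 108 did not.

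No paired analysis was possible because the solved libraries could not be matched to the replicate numbers of the labels. Tail depth limits low levels most, and genes above the solving limits have no replicate spread here.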
